A study of Mus musculus with 3 samples.

Results

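Genes that carry lipid through macrophages were followed across the lavage cells of bleomycin-injured mouse lungs. They were 10 of the 32286 genes measured, matched by symbol. The set held the scavenger receptors Cd36 and Msr1, the lipoprotein lipase Lpl, the fatty acid-binding proteins Fabp4 and Fabp1, the lipid droplet coat protein Plin2, the cholesterol exporters Abca1 and Abcg1, the lipid acceptor Apoe, and the nuclear receptor Nr1h3 (LXRα). Macrophages of the air space take up spent surfactant and cell debris, bind the fatty acids that lipases release, and store the surplus as esters in droplets. Cholesterol leaves the cell through ATP-driven transporters onto lipoprotein particles such as those built on apolipoprotein E. LXRα is turned on by oxidised cholesterol and is known to drive transcription of the exporters, while PPARγ, the regulator of alveolar macrophage identity, is known to drive uptake and fatty acid-binding genes.

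The cells came from mice given bleomycin, a lung-injuring agent used to model fibrosis, through the airway. Lavage fluid was collected 14 days later and pooled within a group, and the CD11b+ or CD11c+ fraction was taken by flow sorting. All groups share the injury, the day and the sort. The groups were wild-type mice that received the kinase inhibitor GW5074 (WT GW5074); Clec7a-deficient mice, which have no functional Dectin-1 (a receptor for fungal cell walls), given the vehicle DMSO (KO DMSO); and wild-type mice given DMSO (WT DMSO). Each group was 1 library of droplet 3' single-cell RNA sequencing. The number, age and sex of the mice in a pool and the dose of GW5074 are not given in the sources used here. With 1 library per group no test between groups was possible, and a difference between groups cannot be told apart from one between pools or runs.

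After filtering, the WT GW5074 library held 17792 cells, the KO DMSO library 11642 and the WT DMSO library 13454, with median depths of 2276, 2937 and 2438.5 unique molecular identifiers (UMIs) per cell. Between 80 and 154 cell barcodes were shared by a pair of libraries. The cells fell into 20 clusters, grouped without using the lipid genes, and 14 were named by marker genes. Clusters 0, 1 and 8 carried markers of resident alveolar macrophages and held 6069 cells (34.1% of the library) in WT GW5074, 4358 (37.4%) in KO DMSO and 1880 (14.0%) in WT DMSO. Clusters 3 and 5 carried markers of monocyte-derived macrophages and held 3613 (20.3%), 1895 (16.3%) and 1060 (7.88%) cells. The summed level of the 10 resident markers was 5853, 7058 and 5974 counts per 1000000 UMIs of the class (CPM) in the resident class of WT GW5074, KO DMSO and WT DMSO, and 1080, 1169 and 1202 CPM in the monocyte-derived class. The 15 monocyte-derived markers summed to 17748, 15709 and 17209 CPM in the monocyte-derived class. They were not absent from the resident class, at 7951, 6893 and 10133 CPM. Clec7a stood at 896, 15.4 and 854 CPM in the resident class, which matches the knockout label.

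The WT DMSO library stood apart in its cell makeup. Neutrophil-like cells were 0.714% of WT GW5074, 2.28% of KO DMSO and 23.0% of WT DMSO, and migratory dendritic cell-like cluster 12 held 37, 12 and 1477 cells. Neutrophil transcripts were also found at a higher level inside the macrophage classes of that library. The 9 neutrophil markers summed to 243, 276 and 587 CPM in the resident class of WT GW5074, KO DMSO and WT DMSO, with Ngp at 0 in WT GW5074 and KO DMSO and no marker at 0 in WT DMSO. In the monocyte-derived class they summed to 223, 216 and 583 CPM, with Ngp at 0 in WT GW5074, Retnlg and Ngp at 0 in KO DMSO and no marker at 0 in WT DMSO. The 8 epithelial markers summed to 46.7, 36.9 and 106 CPM in the resident class, where Scgb1a1, a secretory protein of airway club cells, made up 10.8, 10.9 and 78.8 CPM. Of these 8 markers Krt8 and Krt18 were at 0 in WT GW5074, Krt8 and Cldn18 in KO DMSO and Krt8 in WT DMSO. The part of this in the comparisons against WT DMSO was not tested.

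In WT GW5074 and KO DMSO most UMIs of each lipid gene lay in macrophage clusters. The 8 macrophage clusters together held 66.3% of the cells and 70.1% of all UMIs in WT GW5074, 65.9% and 69.3% in KO DMSO, and 26.7% and 34.4% in WT DMSO. For Lpl they held 89.6%, 93.2% and 70.9% of the gene's UMIs in the 3 libraries, and for Cd36 74.8%, 76.6% and 55.5%. Cd36 had the lowest share of the 10 genes in WT GW5074 and KO DMSO. In WT DMSO the share was under 50% for Abca1, at 45.9%, and Fabp1, at 47.1%. Unnamed cluster 11, with 240, 108 and 1201 cells, was not counted among the 8. In WT DMSO it held 4302 of the 23218 Lpl UMIs, at 822 CPM, and 1090 of the 4146 Msr1 UMIs, at 208 CPM. Of the 274 Fabp1 UMIs it held 17. The WT DMSO shares therefore depend on where this cluster is placed. Conventional dendritic cell 1-like cells, which cross-present antigen from dead cells, carried Cd36 at 182, 169 and 139 CPM. Those cells also held Plin2 at 214, 185 and 201 CPM. These 2 sets of levels leave out cells that also carried another class's markers. Fabp4 in migratory dendritic cell-like cells differed by cluster, with 84.5, 96 and 116 CPM in cluster 2 and 8.25, 7.23 and 7.16 CPM in cluster 7, over all cells of the cluster. Cluster 12 held 180, 335 and 52.6 CPM, on 11, 10 and 232 UMIs.

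**Figure D1:**
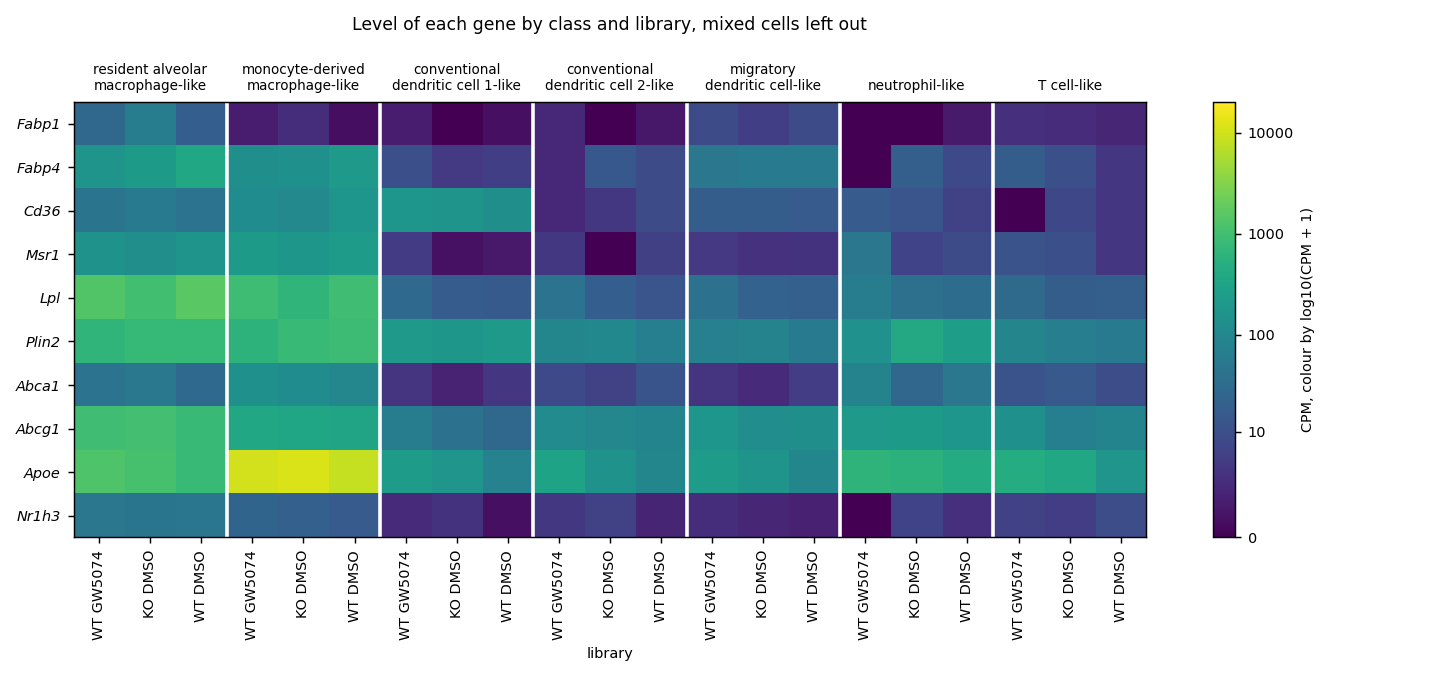
Level of each of the 10 genes in 7 cell classes and 3 libraries, as colour on a log10(CPM + 1) scale, with cells that carried another class's markers left out. Lpl, Plin2 and Abcg1 were above 300 CPM in both macrophage classes of each library. Of the 7 classes, Fabp1 passed 10 CPM in the resident class alone, though single clusters of other cells also passed it.

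The resident and the monocyte-derived class divided the genes between them, in the same direction in all 3 libraries for 9 of the 10. Fabp1 was 24.1-fold higher in the resident class in WT GW5074, 24.3-fold in KO DMSO and 40.5-fold in WT DMSO, on 12, 18 and 2 UMIs in the monocyte-derived class. Abcg1, Nr1h3, Lpl and Fabp4 were also higher in the resident class, Abcg1 by 1.33, 1.60 and 1.38 on the log2 scale and Nr1h3 by 1.10, 1.2 and 1.55. Apoe, Abca1, Cd36 and Msr1 were lower there, and Apoe was 7.76-, 10.3- and 9.94-fold lower. The 2 cholesterol exporters therefore ran in opposite directions: Abca1 had log2 differences of -1.70, -1.25 and -1.79 (resident over monocyte-derived), against the positive values of Abcg1. Plin2 alone had no common direction, with log2 differences of 0.10, -0.04 and -0.25. The 9 directions were unchanged in each of the 9 other ways of filtering, clustering, gating or scaling that were tried, and that of Plin2 was not. At Leiden resolution 2 no Fabp1 UMI was left in the monocyte-derived class of WT DMSO, so no ratio was taken there. The clusters were built from other genes of these same cells, so the differences are descriptions and carry no test.

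**Figure D2:**
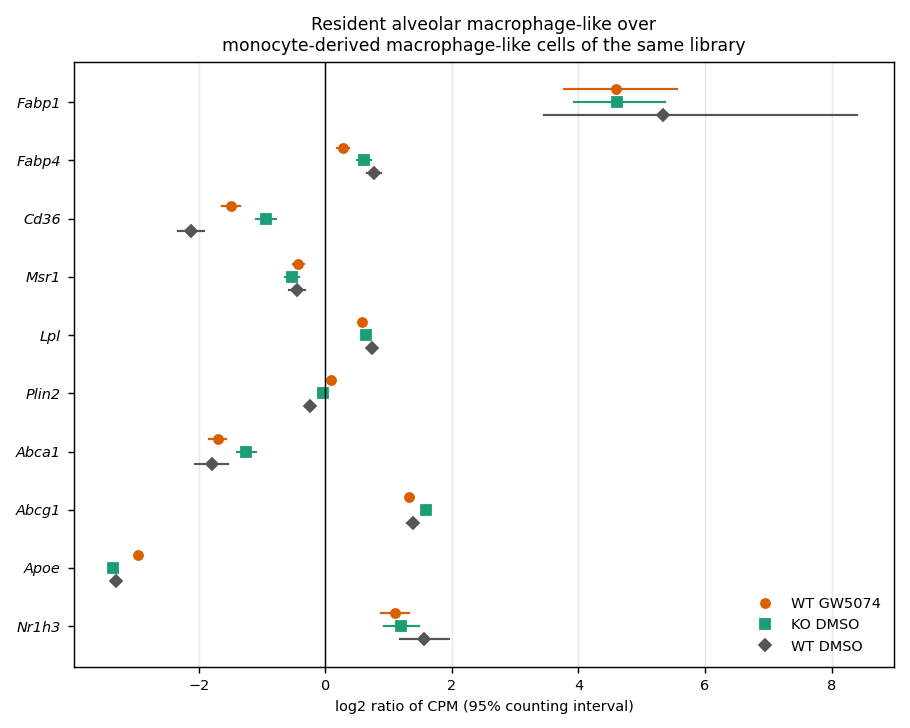
Difference between the resident alveolar macrophage-like and the monocyte-derived macrophage-like class for each gene and library, in log2 of the CPM ratio, with 95% counting intervals. Points right of 0 are higher in the resident class. Fabp1 lies farthest right at 4.59, 4.60 and 5.34 and Apoe farthest left at -2.96, -3.36 and -3.31.

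The clusters within a class differed as well. Cluster 1, led by Krt19, Htr2c and Lepr, held Fabp1 at log2 3.38, 3.83 and 2.96 above cluster 0, led by Cav1 and Ear2, in WT GW5074, KO DMSO and WT DMSO. Cd36 (1.52, 1.60 and 1.17), Abca1 (1.07, 1.14 and 0.64) and Abcg1 (0.73, 0.82 and 0.52) were higher in cluster 1 too, and Apoe was lower there (-2.0, -1.59 and -2.14). Among monocyte-derived cells, cluster 5, led by Pf4, Fcrls and Stab1, held more Fabp4 than cluster 3, led by Mmp12 and Cx3cr1 (log2 1.69, 1.76 and 2.14). It also held more Apoe (1.30, 1.15 and 1.14) and Abca1 (0.78, 0.61 and 0.80), and less Cd36 (-0.62, -0.91 and -0.15). Cluster 1 made up 32.2% of the resident class in WT GW5074, 40.8% in KO DMSO and 23.0% in WT DMSO, so a class level moves with its makeup. Values within clusters are therefore given beside those of the class.

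**Figure D3:**
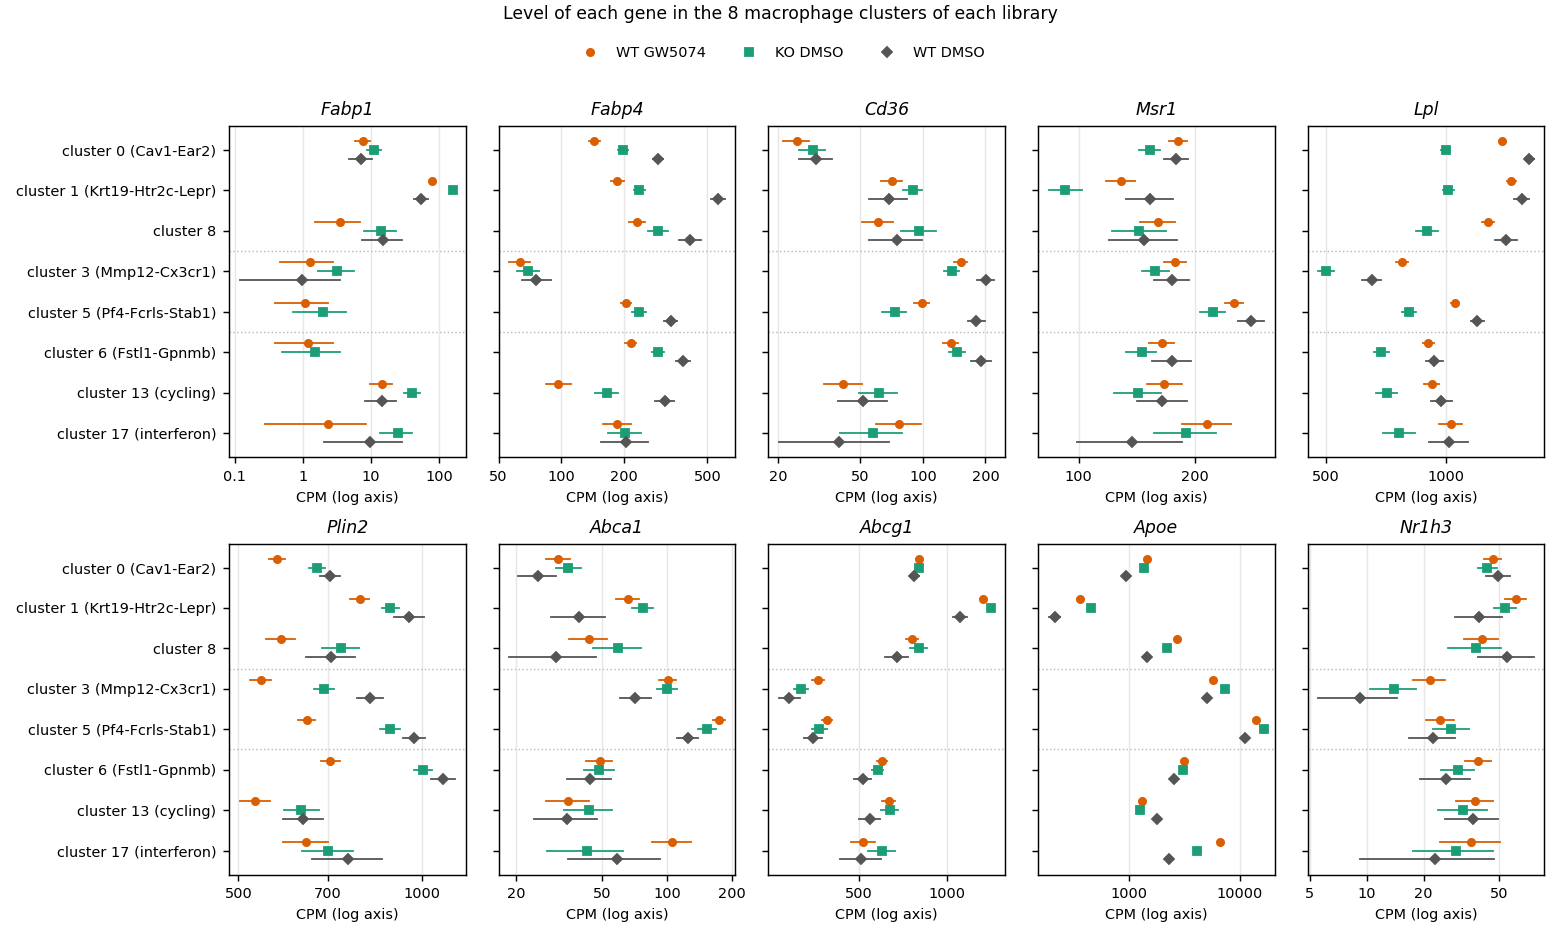
Level of each gene in the 8 macrophage clusters, 1 point per library, in CPM on a log axis with 95% counting intervals. Clusters with 0 UMIs are not drawn, which concerns Fabp1 in clusters 5 and 6 of WT DMSO. Cluster 1 has the highest Fabp1 point of each library, at 79.4, 159 and 55.0 CPM.

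For the comparisons between libraries, a gene was called past the size rule when its CPM differed by at least 1.5-fold and the 95% counting interval of the ratio excluded 1. Genes with a mean under 10 CPM over the libraries were not measured, which kept 10 of the 10 genes in the resident class and 9 of 10 in the monocyte-derived class, where Fabp1 was too low. Intervals are exact and cover counting error only, so they are narrower than any spread between pools would be. In the resident class, WT GW5074 over WT DMSO passed the rule for 4 of the 10 genes, against 1.09% of all 8155 genes measured. KO DMSO over WT DMSO also passed for 4 of 10, against 6.4% of all genes, and KO DMSO over WT GW5074 for 1 of 10, against 3.56%. In the monocyte-derived class the counts were 3 of 9 for WT GW5074 over WT DMSO (background 1.39% of 7995 genes), 1 of 9 for KO DMSO over WT DMSO (6.27%) and 0 of 9 for KO DMSO over WT GW5074 (5.04%). The first 2 comparisons share the WT DMSO library, so a low or high value there enters both. Within single clusters, WT GW5074 over WT DMSO passed the rule for 2 of 9 genes measured in cluster 0 (background 1.54%), 4 of 10 in cluster 1 (4.25%), 3 of 10 in cluster 8 (4.85%), 2 of 9 in cluster 3 (2.79%) and 3 of 9 in cluster 5 (2.86%). The other macrophage clusters gave 2 of 9 in cluster 6 (3.58%), 1 of 10 in cluster 13 (4.07%) and 4 of 10 in cluster 17 (9.43%). KO DMSO over WT DMSO passed for 1 of 9 in cluster 0 (7.34%), 6 of 10 in cluster 1 (10.1%), 3 of 10 in cluster 8 (13.1%), 0 of 9 in cluster 3 (8.6%) and 1 of 9 in cluster 5 (8.04%). It passed for 0 of 9 in cluster 6 (6.81%), 2 of 10 in cluster 13 (8.15%) and 1 of 10 in cluster 17 (9.38%), so cluster 1 held the most genes past the rule in this comparison. The median log2 ratio of the genes in the resident class was 0.03, 0.14 and 0.17 in these 3 comparisons, against -0.01, -0.07 and -0.05 over all genes measured. In the monocyte-derived class it was -0.03, -0.21 and -0.18, against -0.01, -0.09 and -0.08. The genes past the rule went both ways against WT DMSO in the resident class, with 3 higher and 1 lower in WT GW5074 and 2 higher and 2 lower in KO DMSO. In the monocyte-derived class the 3 in WT GW5074 and the 1 in KO DMSO were all lower.

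**Figure D4:**
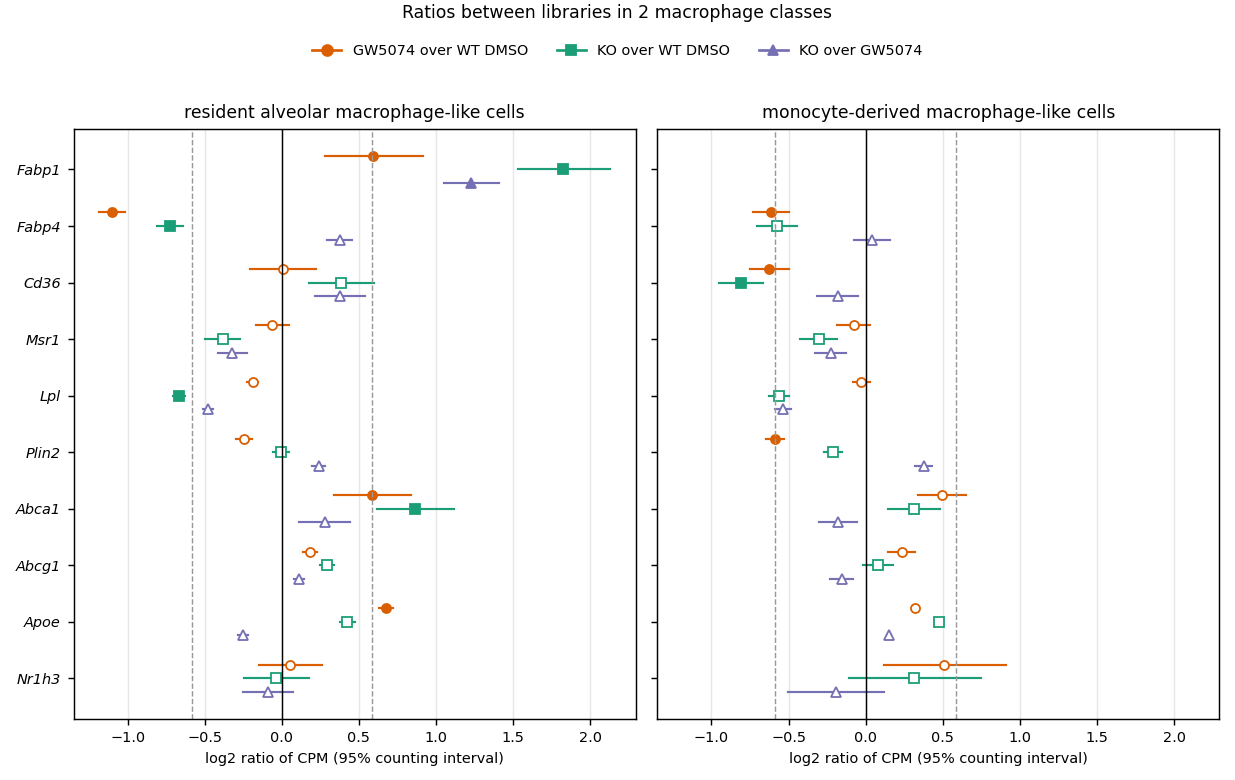
Log2 ratio between libraries of each gene in the resident and the monocyte-derived class, with 95% counting intervals. Filled points passed the size rule, open points did not, and dashed lines mark 1.5-fold (0.58 on the log2 scale). Fabp1 is left out of the monocyte-derived panel. In the resident class Fabp1 reached 1.82 for KO DMSO over WT DMSO and Fabp4 -1.10 for WT GW5074 over WT DMSO.

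Cd36, a receptor for long-chain fatty acids and oxidised lipoproteins, differed between libraries in monocyte-derived cells. It stood at 123 CPM in WT GW5074, 109 CPM in KO DMSO and 190 CPM in WT DMSO, so WT DMSO was the high library. It fell 1.54-fold in WT GW5074 (95% interval 1.41 to 1.68) and 1.75-fold in KO DMSO (1.58 to 1.94) relative to WT DMSO. The share of these cells with a Cd36 UMI differed less, at 18.7%, 20.5% and 24.2%. The larger part of the fall lay in cluster 5, with 98.9, 73.1 and 181 CPM, where Cd36 was 1.83-fold and 2.48-fold lower than in WT DMSO. There 18.7%, 17.2% and 29.4% of cells had a Cd36 UMI. In cluster 3 the levels were 152, 138 and 201 CPM and neither ratio passed the rule. Its 729, 513 and 413 UMIs lay in 341, 253 and 110 cells, or 18.7%, 22.8% and 19.6% of the cluster. Resident cells held 43.7, 56.8 and 43.5 CPM, and the KO DMSO level was 1.30-fold above each of the others. In cluster 0 Cd36 stood at 24.6, 29.4 and 30.4 CPM, so KO DMSO was not above WT DMSO there. Cluster 1, which is richer in Cd36 and a larger share of the class in KO DMSO, held 70.8, 89.1 and 68.3 CPM. The part of class makeup in the resident ratio was not tested. The fall in KO DMSO passed the rule in 9 of 13 alternative ways of processing and that in WT GW5074 in 8 of 13. Neither passed at Leiden resolution 0.5, where the monocyte-derived class held 3563, 1871 and 2129 cells instead of 3613, 1895 and 1060. Unnamed cluster 11, outside the class, held Cd36 at 53.7, 21.4 and 78.1 CPM, on 34, 8 and 409 UMIs. Its part in the difference was not tested.

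Msr1, the class A scavenger receptor for modified lipoproteins, was among the steadier genes. Resident cells held 163, 130 and 170 CPM in WT GW5074, KO DMSO and WT DMSO, and monocyte-derived cells 219, 187 and 231 CPM. KO DMSO was the lowest library in both classes, by 1.31-fold (1.2 to 1.41) and 1.24-fold (1.14 to 1.34) against WT DMSO, which is under the rule. In cluster 1 the difference was larger, at 129, 92.4 and 153 CPM, and KO DMSO was 1.66-fold lower than WT DMSO (1.39 to 1.97).

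Lpl frees fatty acids from the triglycerides of lipoproteins. Its level in resident cells was 1384 CPM in WT GW5074, 992 CPM in KO DMSO and 1576 CPM in WT DMSO. KO DMSO was thus the low library, 1.59-fold below WT DMSO (1.55 to 1.63), and WT GW5074 was 1.14-fold below it (1.11 to 1.17). The KO DMSO fall was found in each resident cluster, by 1.62-fold in cluster 0, 1.53-fold in cluster 1 and 1.57-fold in cluster 8. It passed the rule in 9 of 13 alternatives, with log2 ratios of -0.70 to -0.46. In monocyte-derived cells Lpl stood at 924, 638 and 942 CPM, and KO DMSO was 1.48-fold below WT DMSO (1.41 to 1.54), just under the rule. When each cell was thinned to 1000 UMIs, 64.1%, 53.7% and 67.8% of resident cells had an Lpl UMI, against 1.43%, 2.20% and 3.02% of T cell-like cells, which should lack it. Before thinning the shares were 77.9%, 74.0% and 81.2% of resident cells, and 692, 334 and 224 resident cells were too shallow to thin.

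Fabp4, the fatty acid-binding protein of fat cells and macrophages, was highest in WT DMSO in both classes. Resident cells held 169 CPM in WT GW5074, 219 CPM in KO DMSO and 363 CPM in WT DMSO, a fall of 2.14-fold in WT GW5074 (2.02 to 2.27) and 1.65-fold in KO DMSO (1.56 to 1.75). The gap was widest in cluster 1, at 185, 236 and 562 CPM, where WT GW5074 was 3.04-fold and KO DMSO 2.38-fold below WT DMSO. In cluster 0 the levels were 143, 197 and 290 CPM, and WT GW5074 passed the rule at 2.02-fold lower. Cycling cluster 13, whose cells carried resident markers, had the same order at 96.6, 164 and 312 CPM. Monocyte-derived cells held 140, 143 and 214 CPM, 1.53-fold lower in WT GW5074 (1.41 to 1.66) and 1.49-fold lower in KO DMSO (1.36 to 1.63, under the rule). Cluster 3 did not share this, with 63.2, 69.2 and 75.8 CPM and no ratio past the rule. The lower Fabp4 of WT GW5074 resident cells was past the rule in 13 of 13 alternatives, with log2 ratios of -1.48 to -1.02, and that of WT GW5074 monocyte-derived cells in 7 of 13, with -0.81 to -0.26. In thinned resident cells 9.45%, 13.4% and 18.1% had an Fabp4 UMI, against 2.86%, 1.10% and 0.431% of T cell-like cells. Other transcripts were also highest in WT DMSO: the neutrophil markers summed to 217, 264 and 856 CPM in cluster 1, and the monocyte-derived markers to 3706, 2845 and 6367 CPM. The monocyte-derived sum was lowest in KO DMSO, whereas Fabp4 was lowest in WT GW5074. Neutrophil-like cells themselves held Fabp4 at 18.9 CPM in KO DMSO and 8.05 CPM in WT DMSO, and 0 UMIs in WT GW5074, which allows up to 48.8 CPM.

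Fabp1, best known as the fatty acid-binding protein of liver and gut, was the gene with the largest difference between libraries. Resident cells held 27.6 CPM in WT GW5074 (389 UMIs), 64.7 CPM in KO DMSO (775 UMIs) and 18.3 CPM in WT DMSO (108 UMIs). KO DMSO was 3.54-fold above WT DMSO (2.89 to 4.37) and 2.34-fold above WT GW5074 (2.07 to 2.65). WT GW5074 was 1.51-fold above WT DMSO (1.22 to 1.89), a ratio that passed the rule in 6 of 13 alternatives and turned to -0.57 on the log2 scale in 1. Most of these UMIs lay in cluster 1, with 322 of 389, 686 of 775 and 70 of 108. Within that cluster Fabp1 stood at 79.4, 159 and 55.0 CPM, so KO DMSO was 2.90-fold above WT DMSO (2.26 to 3.76) and 2.0-fold above WT GW5074 (1.75 to 2.30). WT GW5074 over WT DMSO was 1.44-fold there (1.11 to 1.90) and 1.08-fold in cluster 0 (0.677 to 1.76), both under the rule. Cycling cluster 13 showed it too, at 14.3, 40.04 and 14.5 CPM, with KO DMSO 2.76-fold above WT DMSO (1.57 to 5.16). In cluster 8 there were 8, 15 and 10 UMIs, or 3.51, 14.1 and 15.2 CPM, and WT GW5074 passed the rule in the opposite direction, 4.34-fold below WT DMSO (1.54 to 12.6). These UMIs were too few to rank KO DMSO against WT DMSO. Fabp1 was not confined to macrophage clusters. Migratory dendritic cell-like cluster 7 held 6.31, 6.67 and 25.6 CPM, on 13, 12 and 68 UMIs, so in WT DMSO it lay above the resident class. Unnamed cluster 15 held 12.9, 17.5 and 15.2 CPM. A Fabp1 UMI was present in 11.4% of cluster 1 cells in WT GW5074 (exact interval 9.99 to 12.9%), 19.1% in KO DMSO (17.3 to 21.1%) and 11.3% in WT DMSO (8.49 to 14.7%). The share in T cell-like cells was 0.257%, 0.287% and 0.247%, at median depths of 692, 1010.5 and 1078 UMIs against 1946, 2351.5 and 2664 UMIs in cluster 1. The rise in KO DMSO over WT DMSO passed the rule in 13 of 13 alternatives, from 0.67 to 1.96 on the log2 scale.

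Fabp1 (ENSMUSG00000054422, mm10 chr6:71199827-71205023, plus strand) is printed with the bases before its start, since it moved most. The RefSeq promoter window of build GRCm38.p6 was taken up to the earlier GENCODE start, 198 bases at chr6:71199629-71199826 on the plus strand, 5′ to 3′. Capitals mark a match to AGGNCA and AGGTCA with 1 base between them, a direct repeat (DR1) of the type PPAR-RXR pairs are known to bind. The match lies on the minus strand, where it reads AGGCCATAGGTCA, 67 bases before the RefSeq start.
Fabp1: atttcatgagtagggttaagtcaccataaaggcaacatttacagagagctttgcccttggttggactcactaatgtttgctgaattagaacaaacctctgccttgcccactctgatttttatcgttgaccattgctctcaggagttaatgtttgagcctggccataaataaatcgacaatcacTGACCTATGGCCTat
Of 32851 mouse promoter windows of 300 bases, 31 (0.0944%) held this pattern on either strand. Windows were found for 6 of the 10 genes, 9 windows in all, and Fabp1 held the 1 match among them. The pattern was spelled with this gene's described element in view, so the match is a description of the letters and not a binding site.

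Plin2, which coats lipid droplets and shields them from lipases, differed in monocyte-derived cells. They held 600 CPM in WT GW5074, 778 CPM in KO DMSO and 901 CPM in WT DMSO. WT GW5074 was 1.5-fold below WT DMSO (1.44 to 1.56), and KO DMSO 1.16-fold below it (1.11 to 1.21). The fall in WT GW5074 was of like size in cluster 3 (544, 690 and 822 CPM, 1.51-fold), cluster 5 (647, 885 and 971 CPM, 1.5-fold) and unnamed macrophage cluster 6, led by Fstl1 and Gpnmb (707, 1003 and 1082 CPM, 1.53-fold). It sits at the edge of the rule and passed it in 7 of 13 alternatives. Resident cells held 640, 756 and 759 CPM, so KO DMSO and WT DMSO did not differ beyond counting error (ratio interval 0.969 to 1.04, as WT DMSO over KO DMSO).

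Abca1 loads cholesterol onto lipid-poor apolipoproteins. In resident cells it stood at 43.2 CPM in WT GW5074, 52.4 CPM in KO DMSO and 28.8 CPM in WT DMSO, so WT DMSO was the low library. KO DMSO was 1.82-fold higher (1.53 to 2.17) and WT GW5074 1.5-fold higher (1.26 to 1.79). Cluster 1 held 65.8, 77.3 and 39.3 CPM, 1.68-fold higher in WT GW5074 (1.24 to 2.32) and 1.97-fold higher in KO DMSO (1.46 to 2.71). In cluster 0 the levels were 31.3, 35.0 and 25.2 CPM, and neither passed. Cluster 8 held 43.5, 59.2 and 30.5 CPM, and KO DMSO was 1.94-fold higher (1.16 to 3.39). Unnamed cluster 17 had another order, at 106, 42.6 and 58.8 CPM on 92, 26 and 18 UMIs. KO DMSO was 2.49-fold below WT GW5074 there (1.59 to 4.01). Monocyte-derived cells held more than resident cells, with 141, 124 and 99.8 CPM. They were 1.41-fold (1.27 to 1.57) and 1.24-fold (1.11 to 1.40) above WT DMSO, under the rule. B cell-like cells with no other class's markers held Abca1 at 81.0, 354 and 210 CPM, on 4, 12 and 54 UMIs. The KO DMSO rise in resident cells passed the rule in 11 of 13 alternatives and that of WT GW5074 in 7 of 13.

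Abca1 (ENSMUSG00000015243, mm10 chr4:53030787-53159895, minus strand) is shown with the 250 bases before its start, as an exporter that LXR is known to drive. They are at chr4:53159896-53160145 of GRCm38.p6 in RefSeq, given on the minus strand, 5′ to 3′. Capitals mark a match to GGTNA and GGTCA with 5 bases between them, taken from a direct repeat (DR4) of the type LXR-RXR pairs are known to bind. It lies on the opposite strand, where it reads GGTTACTACCGGTCA, 67 bases before the start.
Abca1: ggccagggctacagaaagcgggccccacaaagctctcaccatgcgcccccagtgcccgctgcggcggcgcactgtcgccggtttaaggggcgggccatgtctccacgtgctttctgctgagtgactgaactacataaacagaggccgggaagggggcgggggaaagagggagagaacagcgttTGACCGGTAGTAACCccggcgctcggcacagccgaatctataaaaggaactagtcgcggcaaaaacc
This pattern, also spelled with the gene's described element in view, was in 68 of the 32851 windows (0.207%) and in 1 of the 9 windows of these genes.

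Abcg1, which exports cholesterol to mature lipoprotein particles, was high in resident cells and differed little. They held 949 CPM in WT GW5074, 1025 CPM in KO DMSO and 836 CPM in WT DMSO, or 1.13-fold (1.10 to 1.17) and 1.23-fold (1.19 to 1.27) above WT DMSO. Monocyte-derived cells held 378, 339 and 321 CPM. No macrophage cluster passed the rule for Abcg1 in the comparisons with WT DMSO. The gene overlaps the small RNA gene Gm25447, and whether the overlap affects its counts was not tested.

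Apoe, the protein of lipoprotein particles that accepts exported cholesterol, reached the highest level of the 10 genes. Monocyte-derived cells held 10257 CPM in WT GW5074, 11406 CPM in KO DMSO and 8223 CPM in WT DMSO, and cluster 5 the most, with 14092, 16347 and 11022 CPM. These were 1.25-fold and 1.39-fold above WT DMSO in the class, under the rule. Resident cells held 1322, 1110 and 827 CPM, 1.60-fold higher in WT GW5074 (1.55 to 1.65) and 1.34-fold higher in KO DMSO (1.30 to 1.39, under the rule). In cluster 0 WT GW5074 was 1.55-fold higher (1431, 1363 and 925 CPM) and in cluster 8 1.87-fold (2671, 2203 and 1432 CPM). Cycling cluster 13, whose cells carried resident markers, went the other way, at 1305, 1248 and 1767 CPM. There WT GW5074 was 1.35-fold (1.28 to 1.44) and KO DMSO 1.42-fold (1.33 to 1.51) below WT DMSO, under the rule. The rise in WT GW5074 resident cells passed the rule in 9 of 13 alternatives. Apoe UMIs in cells that should lack it moved the same way: T cell-like cells with no other class's markers held Apoe at 456, 371 and 174 CPM, and 22.9%, 22.4% and 10.9% of them had an Apoe UMI. The levels of cluster 1, at 357, 452 and 210 CPM, are near those of the T cell-like cells, and the part of such UMIs in the cluster 1 ratios, which passed the rule, was not tested. Resident cells as a class lay higher, with an Apoe UMI in 38.5%, 33.4% and 28.0% of cells thinned to 1000 UMIs, against 25.7%, 22.5% and 9.91% of thinned T cell-like cells. The source of the Apoe UMIs in T cell-like cells was not measured, and its part in the resident difference was not tested. In unnamed cluster 17, led by interferon-induced genes such as Rsad2 and Ifit3, Apoe reached 6653, 4090 and 2294 CPM over 263, 185 and 83 cells. Its monocyte-derived markers summed to 15299, 11643 and 9859 CPM in the same order.

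Nr1h3, the LXRα gene, was level across libraries in the resident class. It stood at 49.5 CPM in WT GW5074, 46.6 CPM in KO DMSO and 47.8 CPM in WT DMSO, within counting error of one another. In cluster 1 it was at 61.2, 53.8 and 39.3 CPM, and WT GW5074 was 1.56-fold above WT DMSO (1.15 to 2.16) on 248 and 50 UMIs. Monocyte-derived cells held 23.1, 20.2 and 16.3 CPM, and WT GW5074 was 1.42-fold above WT DMSO (1.09 to 1.87), under the rule. Cluster 3 held 21.5, 13.9 and 9.23 CPM on 103, 52 and 19 UMIs, 2.33-fold higher in WT GW5074 (1.42 to 4.02). The gene overlaps Gm13783 on its own strand and Gm23390 on the other, and whether these overlaps affect its counts was not tested.

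**Figure D5:**
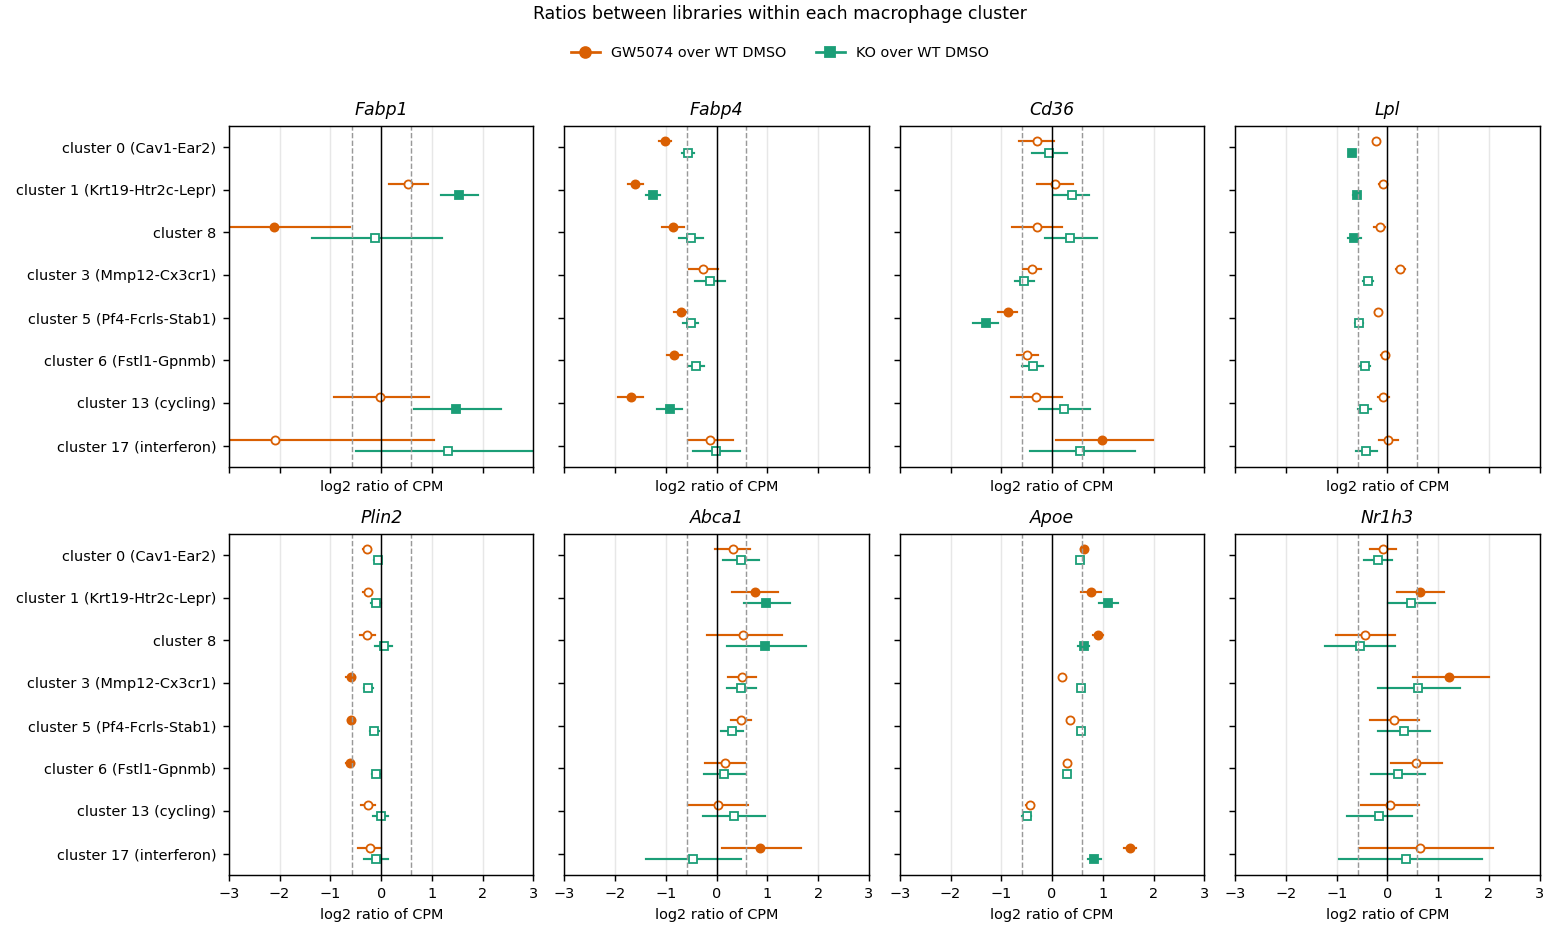
Log2 ratio to WT DMSO of 8 of the genes within each macrophage cluster, for WT GW5074 and KO DMSO, with 95% counting intervals. Filled points passed the size rule and dashed lines mark 1.5-fold. The axis ends at -3 and 3. Fabp4 in cluster 1 lies at -1.61 for WT GW5074 and -1.25 for KO DMSO, and Fabp1 at 1.53 for KO DMSO.

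The wider lipid pathways were taken from lists of which some of the 10 genes are members. In resident cells of KO DMSO over WT DMSO, the storage list had 3 of 12 measured genes past the rule, against 6.4% of all genes. Cidec, a protein that fuses lipid droplets, was at 45.0, 73.7 and 20.2 CPM in WT GW5074, KO DMSO and WT DMSO, 2.23-fold (1.83 to 2.74) and 3.66-fold (3.02 to 4.47) above WT DMSO. Cidec is among the leading genes of cluster 1, whose share of the class also differed. Pnpla2, the first lipase of droplet breakdown, was at 46.8, 74.9 and 39.97 CPM, 1.87-fold higher in KO DMSO (1.62 to 2.17). Lipe, the hormone-sensitive lipase, was at 14.3, 9.77 and 14.9 CPM, 1.53-fold lower in KO DMSO (1.14 to 2.03). The PPAR and GM-CSF list had 2 of 10 past the rule, Pparg at 328 CPM in KO DMSO and 211 CPM in WT DMSO, 1.55-fold higher (1.46 to 1.66), and the transcription factor gene Bhlhe40 at 85.3 CPM in KO DMSO and 153 CPM in WT DMSO, 1.80-fold lower (1.64 to 1.97). The list of cholesterol export and LXR targets had 2 of 15, Abca1 and the lipid transporter gene Abca7, at 28.7 CPM in KO DMSO and 45.2 CPM in WT DMSO, 1.57-fold lower (1.34 to 1.85). Fatty acid oxidation had 0 of 13 past the rule in each of the 3 resident comparisons. The shares over all genes were 1.09% for WT GW5074 over WT DMSO, 6.4% for KO DMSO over WT DMSO and 3.56% for KO DMSO over WT GW5074. A list of 13 genes is too short to tell 0 from these shares. Its medians were -0.12 for WT GW5074 over WT DMSO and -0.06 for KO DMSO over WT DMSO, against -0.01 and -0.07 over all genes.

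In monocyte-derived cells the uptake list held the largest single change among these lists. Olr1, the oxidised LDL receptor, stood at 154 CPM in WT GW5074, 372 CPM in KO DMSO and 172 CPM in WT DMSO, and KO DMSO was 2.16-fold above WT DMSO (1.99 to 2.34) and 2.41-fold above WT GW5074 (2.27 to 2.57). It and Cd36, in opposite directions, were the 2 of 14 measured genes past the rule there for KO DMSO over WT DMSO, against 6.27% of all genes. In resident cells Olr1 was at 408, 646 and 464 CPM. The list of cholesterol export and LXR targets had 0 of 15 past the rule for WT GW5074 over WT DMSO. Of its log2 ratios 14 of 15 were above 0, with a median of 0.18 against -0.01 over all genes. The share of all genes above 0 was not taken, so the count of 14 has no background of its own. This list includes Abca1, already described, and was chosen with earlier results of these data known. Whether its genes rose as a set was not tested.

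Over the 20 clusters, with levels averaged over the libraries, the genes fell into patterns that other transcripts shared. The likeness is Pearson's r of log2(CPM + 10), taken among 6463 genes, and clusters share libraries and depth, so it is a description. Lpl was most like Hebp1 (r = 0.990), Plin2 like Hexa (0.981), Nr1h3 like Myo7a (0.981) and Msr1 like Ggh (0.980). Apoe was most like the complement receptor gene C3ar1 (0.971) and the complement genes C1qc (0.968) and C1qb (0.967). Fabp1 was most like Fam189a2 (0.883), Cidec (0.869) and Lepr (0.865), and Abca1 like the haem oxygenase gene Hmox1 (0.898). The nearest genes to the others were Mapk3 for Abcg1 (0.956), Nrp2 for Fabp4 (0.939) and Fnip2 for Cd36 (0.831). Among the 10 genes themselves, Lpl and Nr1h3 were the closest pair (0.949), and Fabp1 and Apoe the farthest apart (-0.253).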

How the data were processed

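The deposited matrices hold raw UMI counts per gene and cell barcode; per the submitters' processing notes the authors used Cell Ranger 2.1.1 and mm10. The labels name both a SeekOne chip and 10x Genomics as the platform. Barcodes under 500 UMIs are not in the matrices. The 10 genes, the lists, the markers and the size rule were chosen with earlier results of these data known.

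A cell was kept when 200 or more genes were detected and mitochondrial UMIs made up 20% or less, which left 42888. Counts were scaled to 10000 per cell and logged, and 2000 variable genes, without 99 lipid genes, were reduced to 30 principal components and clustered (Leiden, 15 neighbours, resolution 1) in Python 3.11.15 with scanpy 1.11.5. Libraries were clustered together with no batch correction. A cluster was named when at least 3 markers and 40% of a class's markers were raised 2-fold, 20 points above the next class, with a median doublet score of at most 0.1. These thresholds were set after seeing the data. Scrublet marked 0 cells, too few for a working caller, so no doublets were removed. Mixed cells (5151) carried at least 5 UMIs and 25% of the usual share of another class's markers. They were left out of the levels of other classes.

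UMIs were summed per library and class or cluster and scaled to CPM, with exact Poisson, conditional binomial and Clopper-Pearson 95% intervals (scipy 1.17.1). A count of 0 was given as a floor of 3 counts per library. Each of the 10 genes was named, then list genes by the 2 highest and 2 lowest ratios of a list. Which of those the text gives was chosen after their values were seen, as were the clusters set beside each class. Gene positions are from GENCODE M21, which held 32236 of 32286 gene identifiers. The ratios between libraries, their intervals and the size rule were checked on simulated Poisson counts with known fold changes. Such counts hold no spread between cells or pools. Filtering, clustering, naming and thinning were not checked this way.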

Additional observations from a re-analysis of the deposited data

How the results depend on the processing

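The number of genes past the size rule was 4, 4 and 1 of 10 in resident cells (WT GW5074 over WT DMSO, KO DMSO over WT DMSO, KO DMSO over WT GW5074) and 3, 1 and 0 of 9 in monocyte-derived cells. In resident cells the first count was 1 at Leiden resolution 0.5, under a per-cell marker gate and without the 10% highest doublet scores, and 2 with genes centred within libraries, in the largest cluster alone and with clusters weighted equally across libraries. In the largest cluster alone the next counts were 1 and 0. In monocyte-derived cells WT GW5074 over WT DMSO gave 1 under a stricter cell filter, centring or TMM scaling, and 0 with a mean over cells. KO DMSO over WT DMSO gave 2 at resolution 0.5, with the lipid genes kept in clustering, under the per-cell gate, without high doublet scores or with no filter on low values, 3 at resolution 2, and 0 in the largest cluster alone or with a mean over cells. KO DMSO over WT GW5074 gave 1 with the lipid genes kept or with no filter, and 2 in the largest cluster. Fabp1 in resident cells of WT GW5074 over WT DMSO reversed to -0.57 with centring. Of 169 repeats of the 13 ratios past the rule, 123 stayed past it. TMM scaling moved the log2 ratios of KO DMSO over WT DMSO in monocyte-derived cells by 0.11, and the other 5 comparisons by 0.03 to 0.08. Leaving out mixed cells and weighting clusters equally were chosen after seeing the data. The cause of these changes was not tested. No paired analysis was possible because each group is 1 library. Depth limits Fabp1 outside cluster 1 and Nr1h3 within clusters, which rest on few UMIs.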
